A study of Homo sapiens with 8 samples.

Results

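The hypoxia-inducible factor (HIF) genes examined here are 38 genes chosen by name, namely the HIF subunits, the enzymes that sense oxygen for them, and hypoxia targets that lie outside glycolysis. All 38 were found among the 58735 genes of the count table. HIF is a transcription factor made of an oxygen-labile alpha subunit, HIF1A or EPAS1 (HIF-2 alpha), and the constant beta subunit ARNT. In the presence of oxygen, prolyl hydroxylases (EGLN1, EGLN2 and EGLN3) mark the alpha subunit for the ubiquitin ligase that contains VHL, and HIF1AN blocks its transcriptional activity. When oxygen is short, the alpha subunit is spared and target genes for oxygen delivery, pH control, matrix modification, mitophagy and growth restraint are transcribed. HIF is thus largely set at the protein level. Neither its protein nor its binding was measured here, and whether the target levels follow its activity was not tested.

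RNA-seq read counts came from 8 libraries of cells labelled A549, a human non-small cell lung cancer line. In the EV group (4 libraries) the cells carried an empty lentiviral vector, and in the KRT19 group (4 libraries, genotype KRT19-OVE) they carried a lentivirus encoding Flag-tagged KRT19, keratin 19 of the epithelial intermediate filaments. Both lines were stable populations selected with puromycin and grown in RPMI-1640 with serum in a CO2 incubator, and the labels name no hypoxic exposure. The labels do not say whether the 4 libraries of a group came from separate cultures, so the p-values measure the spread between libraries, which may be technical.

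Total counts per library ranged from 14073065 to 17054364 and mitochondrial transcripts took 2.95% to 3.38% of them. KRT19 itself had 1 to 5 counts in EV and 4353 to 5147 counts in KRT19 libraries, which matches the group labels. The extraction text in the labels names retinas, although the source given is the cell line, and the defining markers did not all match the line named. EPCAM and CDH1, epithelial surface proteins, had no more than 3 counts in any library, whereas the keratins KRT8 and KRT18 stood at 221 and 315 CPM (counts scaled to the library size) in EV. Of 7 NRF2 targets known to be high in A549, NQO1 and GCLM were expressed, at 439 and 51.5 CPM in EV, while AKR1B10, AKR1C1, AKR1C2, ALDH1A1 and ALDH3A1 averaged at most 1.47 CPM there. CDKN2A, CDKN2B and MTAP, genes of a region deleted in A549, together made 178 to 194 CPM in EV against 174 to 196 CPM in the KRT19 group. Their expression goes against the A549 label, and the identity of the cells was not tested. The summed level of 6 fibroblast markers was 2.40 to 3.29 CPM in EV against 1.85 to 3.80 CPM in the KRT19 group. It was at most 0.604 CPM for 5 immune markers, none of which had more than 6 counts in a library. For 5 retina markers the sum was 0.706 to 1.81 CPM in EV against 0.724 to 1.12 CPM in the KRT19 group. The sum of 4 endothelial markers was 2.77 to 3.13 CPM in EV against 2.17 to 2.48 CPM in the KRT19 group, and its part in the results was not tested. KRT19 replicate 3 stood apart from its group, and GC content and gene length described 16.7% of its deviation across genes. That share was 12.4% for EV replicate 3 and 10.5% for KRT19 replicate 1. Values without KRT19 replicate 3 are given beside the results it moved most.

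To determine whether the HIF pathway differed with KRT19, the members were read from a fit of edgeR's quasi-likelihood test over all genes. Of the 38 members, 34 passed the filter on low counts and were tested. All 27 tested members outside the 8 regulators had a log2 fold change (KRT19 minus EV) below 0, and 11 of them were lower at an unadjusted p under 0.05, led by CCNG2, ANGPTL4, BNIP3, ERO1A and FAM162A. PPFIA4 was above 0 without KRT19 replicate 3, without EV replicate 2 and under limma-voom, and ZNF395 without EV replicate 1. Of the 7 tested regulators, 4 were below 0 and 3 above, and whether they differed from the targets was not tested. No regulator reached the unadjusted level in this edgeR fit, but EGLN1 did under limma-voom (unadjusted p = 0.0238) and in edgeR with GC content and gene length corrected (unadjusted p = 0.0441). Over all 34 tested members, 31 were below 0, against 47.8% of all 14621 genes tested, and the median log2 fold change was -0.13, against 0.0051 over all genes. The 11 lower members made 32.4% of those tested, while 2.56% of all genes were lower at an unadjusted p under 0.05. None was higher, where 2.85% of all genes were, and in either direction the share of all genes was 5.41%. In 9 members every KRT19 library was below every EV library, which held for 1.81% of all genes, and 0 members had every KRT19 library above, where 1.63% of all genes did. The members were chosen with earlier results of these data known and share the same libraries, so these shares are a description.

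The differences were small, and none was significant after adjustment in this fit. The log2 fold changes of the tested members ran from -0.27 to 0.07. In this edgeR fit, 0 members had a Benjamini-Hochberg adjusted p under 0.05 over all genes tested, as against 11 at the unadjusted level, and the smallest adjusted p was 0.489, for CCNG2. At that threshold 0.00684% of all genes were called, which was KRT19 alone. The DESeq2 Wald test called 0 members, and limma-voom called 1, CCNG2. With the looser filter of at least 1 count, edgeR called 3, ANGPTL4 (adjusted p = 0.00532), CCNG2 (adjusted p = 0.0374) and PLOD1 (adjusted p = 0.0374), among 71 of all genes called in that fit.

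**Figure D1:**
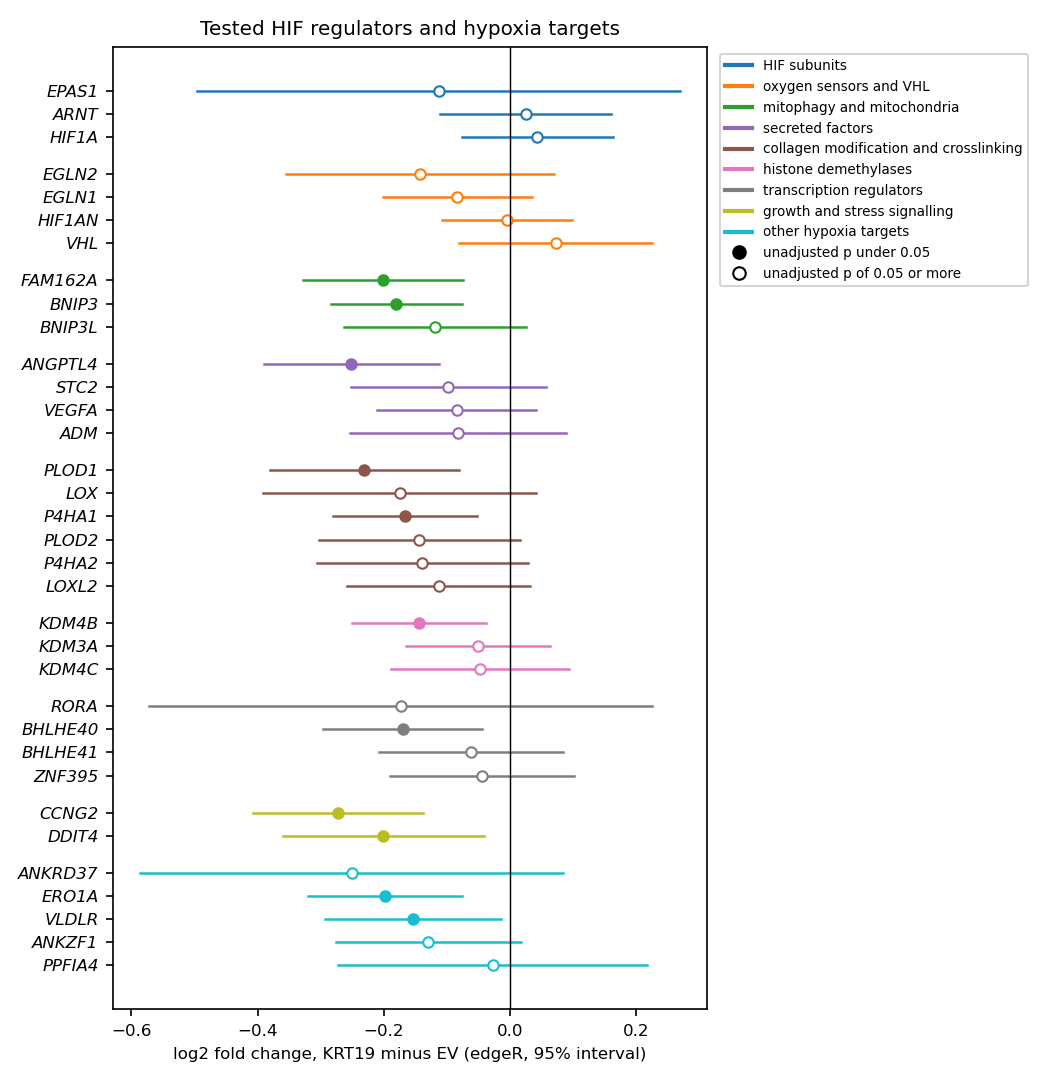
Log2 fold change (KRT19 minus EV) of the 34 tested members with its 95% interval from edgeR, grouped and coloured by role, with filled points for an unadjusted p under 0.05. The 11 filled points all lie below 0, from -0.27 for CCNG2 to -0.14 for KDM4B, and the intervals of all open points, regulators and targets, include 0.

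The HIF subunits were compared first. HIF1A (ENSG00000100644, plus strand of chromosome 14, 61695513 to 61748259, GRCh38) encodes the main oxygen-labile subunit and was well expressed, with 141, 135, 124 and 141 CPM in the EV libraries and 131, 137, 149 and 139 CPM in the KRT19 libraries. The groups overlapped, with EV replicate 3 lowest and KRT19 replicate 3 highest. The fitted difference (log2 fold change) was 0.04 ± 0.057 (SE), with a 95% interval of -0.08 to 0.16 (edgeR, adjusted p = 0.952), and it was 0.0037 without EV replicate 3 and 0.0083 without KRT19 replicate 3. ARNT, the shared beta subunit, had 48.4, 46.8, 48.2 and 52.9 CPM in the EV libraries against 49.0, 52.1, 45.6 and 53.3 CPM with KRT19, and the KRT19 libraries spanned the whole EV range. Its log2 fold change was 0.02 ± 0.064 (SE, interval -0.11 to 0.16, adjusted p = 0.973), and it was 0.067 without KRT19 replicate 3 and -0.0072 without KRT19 replicate 4. EPAS1, the alpha subunit best known from endothelium and lung, was scarce, at 2.68 to 3.65 CPM in EV against 2.18 to 3.68 CPM in the KRT19 group. Its log2 fold change of -0.11 ± 0.18 (SE) had a wide interval, -0.50 to 0.27 (adjusted p = 0.959), and it was -0.25 without KRT19 replicate 1 and 0.00076 without KRT19 replicate 4. Under limma-voom the value was -0.29 (unadjusted p = 0.126). The transcripts of the alpha subunits do not report protein stability, which was not measured.

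No oxygen sensor separated the groups either. EGLN1, the prolyl hydroxylase that sets HIF-1 alpha turnover in most cells, was at 67.6, 68.0, 62.7 and 67.8 CPM in EV, and in the KRT19 group at 65.6, 62.8, 63.5 and 59.0 CPM. Most KRT19 libraries were below most EV libraries, but EV replicate 3 lay among them. This gave a log2 fold change of -0.08 ± 0.056 (SE, interval -0.20 to 0.03, adjusted p = 0.906). It was -0.11 without EV replicate 3 and -0.056 without KRT19 replicate 4. EGLN2, another prolyl hydroxylase, was at 10.4 to 13.7 CPM in EV against 9.93 to 11.5 CPM in the KRT19 group, a log2 fold change of -0.14 ± 0.10 (SE, interval -0.36 to 0.07, adjusted p = 0.911), and of -0.068 without EV replicate 3. Its counts are less certain, because 30.6% of its exon bases also lie in other annotated genes of the same strand, among them the read-through gene RAB4B-EGLN2, which had 0 counts.

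HIF1AN, the asparaginyl hydroxylase that keeps HIF from its coactivators, was the closest to 0, with means of 117 ± 3.93 and 117 ± 2.31 CPM (SD, n = 4 each) and a log2 fold change of -0.0048 ± 0.049 (SE, interval -0.11 to 0.10, adjusted p = 0.993), which ran from -0.022 to 0.010 on leaving out 1 library. VHL, the substrate receptor of the ligase, had 56.4, 54.5, 50.4 and 53.1 CPM in EV and 53.8, 54.5, 65.6 and 51.3 CPM in KRT19 libraries. The high value was that of KRT19 replicate 3. VHL had a log2 fold change of 0.07 ± 0.072 (SE, interval -0.08 to 0.23, adjusted p = 0.930), and without that library the value was -0.011. EGLN3, the prolyl hydroxylase that is itself a strong hypoxia target, had 4 to 15 counts in EV and 6 to 8 counts in KRT19 libraries and did not pass the filter.

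**Figure D2:**
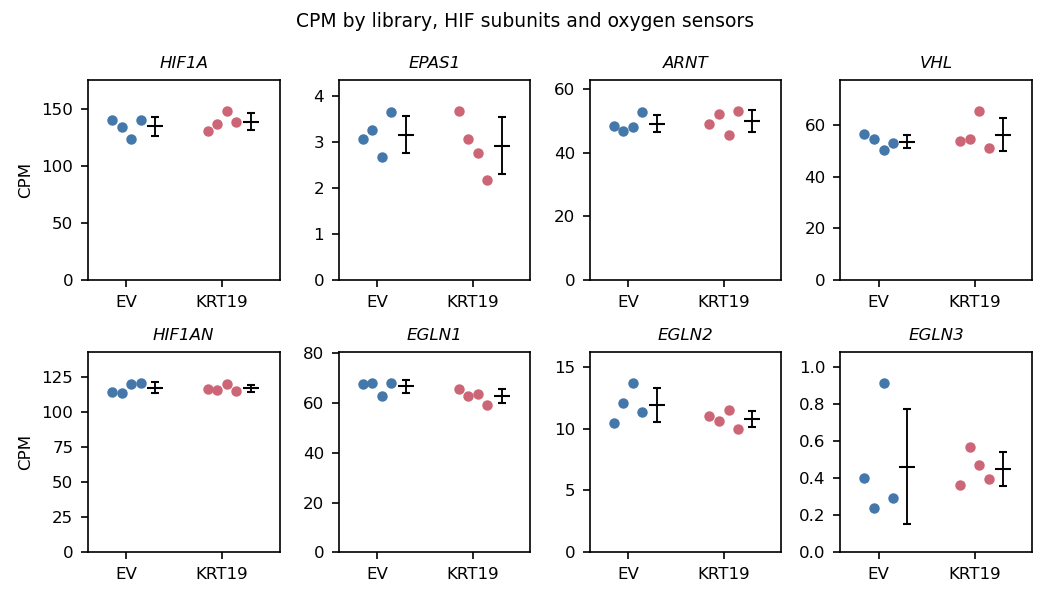
CPM of the HIF subunits and oxygen sensors in each library, with 1 point per library and the mean with its SD (n = 4) beside each group, each panel starting at 0. The EV and KRT19 points overlap in all 8 panels, and HIF1A and HIF1AN stand at 113 CPM or more while EGLN3 stays under 1 CPM.

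HIF binds DNA at a short core, written ACGTG or GCGTG, in the hypoxia response elements of its targets. The 5 members with the smallest p are shown by the 250 bases before their start site (RefSeq, GRCh38.p14), because they carry the lower target levels described next. Letters are 5′ to 3′ on the strand of the gene, and capitals mark ACGTG and GCGTG on either strand, which read CACGT and CACGC on the opposite one. CACGTG holds ACGTG on both strands and is also the E-box bound by other factors such as BHLHE40.
CCNG2 (chr4:77156957-77157206, plus strand): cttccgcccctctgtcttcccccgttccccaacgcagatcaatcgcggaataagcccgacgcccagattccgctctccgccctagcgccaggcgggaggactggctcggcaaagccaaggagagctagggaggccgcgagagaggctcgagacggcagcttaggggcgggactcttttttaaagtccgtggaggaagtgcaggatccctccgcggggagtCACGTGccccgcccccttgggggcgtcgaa
ANGPTL4 (chr19:8363905-8364154, plus strand): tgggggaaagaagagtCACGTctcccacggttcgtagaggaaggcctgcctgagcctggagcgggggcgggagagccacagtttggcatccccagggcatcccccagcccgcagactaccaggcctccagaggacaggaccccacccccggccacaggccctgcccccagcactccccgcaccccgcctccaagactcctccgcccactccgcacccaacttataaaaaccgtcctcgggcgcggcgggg
BNIP3 (chr10:131981924-131982173, minus strand): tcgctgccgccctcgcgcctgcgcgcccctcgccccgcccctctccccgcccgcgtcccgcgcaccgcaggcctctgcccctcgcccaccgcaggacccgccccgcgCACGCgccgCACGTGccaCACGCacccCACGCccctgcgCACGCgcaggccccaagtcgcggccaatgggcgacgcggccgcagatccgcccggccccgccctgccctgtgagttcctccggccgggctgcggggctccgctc
ERO1A (chr14:52695559-52695808, minus strand): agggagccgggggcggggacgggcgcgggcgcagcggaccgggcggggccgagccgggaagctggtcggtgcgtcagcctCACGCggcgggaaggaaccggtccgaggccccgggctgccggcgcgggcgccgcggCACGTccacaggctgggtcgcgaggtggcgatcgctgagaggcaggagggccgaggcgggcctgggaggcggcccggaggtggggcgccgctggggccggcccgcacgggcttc
FAM162A (chr3:122383932-122384181, plus strand): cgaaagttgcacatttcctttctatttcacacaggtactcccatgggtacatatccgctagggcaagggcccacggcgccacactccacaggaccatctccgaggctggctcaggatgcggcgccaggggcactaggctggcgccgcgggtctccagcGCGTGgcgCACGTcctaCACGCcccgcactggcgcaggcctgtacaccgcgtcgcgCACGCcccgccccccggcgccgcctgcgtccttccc

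A start site was matched for 31 of the 38 members, taking the one nearest to the 5′ end of the gene in the count table, although that one lay over 1 kb from it for EGLN3, RORA, P4HA2, KDM4C, HIF1AN, EPAS1, EGLN1, PLOD2 and STC2. All 11 lower members were among them, and each had at least 1 core in these 250 bases, from 1 in ANGPTL4 and P4HA1 to 6 in BNIP3, where CACGTG counts as 2. The core was present in 26 of the 31 members (83.9%), against 58.3% of the 10342 tested genes with a matched start site. The ACGTG form was in 9 of the 11 lower members (81.8%), in 9 of the other 20 (45.0%) and in 23.7% of the tested genes, and the GCGTG form was in 7 (63.6%), 10 (50%) and 46.4%. The median GC content of the windows was 70% in the 11, 64.6% in the other 20 and 65.2% over the tested genes, and the core holds a CpG. The other 20 include 7 regulators, of which 2 held ACGTG (28.6%), and all 9 members whose start site lay over 1 kb away. They also include CA9, CA12 and EGLN3, which were not tested. Over the 24 matched members outside the regulators, 16 held ACGTG (66.7%). The 11 were picked by p from these data, and whether they differed from the rest was not tested. The members were listed as hypoxia targets, and a match of these letters is no measurement of binding.

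Of the 3 mitochondrial targets, 2 were lower at an unadjusted p under 0.05. BNIP3 (ENSG00000176171, minus strand of chromosome 10, 131966455 to 131982013), a mitochondrial receptor that starts mitophagy, was at 268, 272, 276 and 251 CPM in EV, and in the KRT19 group at 244, 243, 227 and 227 CPM. Every KRT19 library was below every EV library. On the log2 scale KRT19 minus EV was -0.18 ± 0.049 (SE), or -11.8% (edgeR, unadjusted p = 0.00194, adjusted p = 0.766). FAM162A, a mitochondrial protein linked to hypoxic cell death, was at 61.4, 67.2, 67.1 and 59.4 CPM in EV, and in the KRT19 group at 58.4, 55.6, 55.2 and 52.6 CPM, again without overlap. Its log2 fold change was -0.20 ± 0.060 (SE, unadjusted p = 0.00383, adjusted p = 0.868). BNIP3L, the related mitophagy receptor, had means of 119 ± 7.63 and 109.7 ± 10.9 CPM (SD, n = 4 each) and overlapped. KRT19 replicate 3 stood at 124 CPM and the other KRT19 libraries at 99.8 to 112 CPM, while EV replicate 3 was at 109 CPM. Without KRT19 replicate 3 the KRT19 mean was 105 CPM and BNIP3L was lower at an unadjusted p under 0.05, as it was without EV replicate 3, under limma-voom, with the looser filter, and with GC content and length corrected with or without the replicate number as a block. Of BNIP3, 5.63% of the 75-base words also occur in other transcripts, so a small part of its reads may be shared.

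All 4 secreted factors had a log2 fold change below 0, and 1 was lower at an unadjusted p under 0.05. ANGPTL4 (ENSG00000167772, plus strand of chromosome 19, 8363289 to 8374373), an inhibitor of lipoprotein lipase, had the highest level per length of all members. It was at 213, 198, 212 and 212 CPM in EV, and in the KRT19 group at 196, 185, 153 and 167 CPM. The groups did not overlap, although the highest KRT19 library lay within 2 CPM of the lowest EV library, and the KRT19 group spread more (coefficient of variation 11.0% against 3.46%). On the log2 scale KRT19 minus EV was -0.25 ± 0.066 (SE), or -16.0% (unadjusted p = 0.00136, adjusted p = 0.712), and it was -0.19 without KRT19 replicate 3. VEGFA, the angiogenic growth factor, averaged 56.2 ± 3.18 CPM with the empty vector and 53.0 ± 2.53 CPM with KRT19 (SD, n = 4 each). The vasodilator peptide ADM was at 24.0 ± 1.98 and 22.7 ± 1.97 CPM and the glycoprotein hormone STC2 at 39.4 ± 3.16 and 36.9 ± 2.95 CPM (SD, n = 4 each). These 3 groups of values overlapped, and their unadjusted p was between 0.176 and 0.327 (edgeR).

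The 6 enzymes that modify collagen all had lower means in KRT19 libraries, and 2 of them reached an unadjusted p under 0.05. PLOD1 (ENSG00000083444, chromosome 1, 11934205 to 11975538), a lysyl hydroxylase, was at 138, 139, 147 and 138 CPM in EV, and in the KRT19 group at 135, 129, 102 and 114 CPM. The KRT19 libraries ranged widely below a tight EV group. The log2 fold change was -0.23 ± 0.071 (SE, unadjusted p = 0.00476, adjusted p = 0.868), and without KRT19 replicate 3 it was -0.16. P4HA1, a catalytic subunit of prolyl 4-hydroxylase, was at 93.6, 95.8, 95.04 and 87.1 CPM in EV, and in the KRT19 group at 82.9, 86.8, 82.4 and 79.0 CPM. All KRT19 libraries were below all EV libraries, by a small margin. The log2 fold change of P4HA1 was -0.17 ± 0.054 (SE, unadjusted p = 0.00689, adjusted p = 0.868). The other catalytic subunit P4HA2 (44.5 ± 1.71 and 40.5 ± 5.17 CPM) and the lysyl hydroxylase PLOD2 (80.7 ± 8.42 and 73.0 ± 6.13 CPM) overlapped between EV and KRT19 libraries (SD, n = 4 each). The lysyl oxidases LOX (11.8 ± 1.46 and 10.5 ± 0.624 CPM) and LOXL2 (191 ± 5.19 and 176 ± 20.8 CPM), which crosslink collagen, overlapped as well (SD, n = 4 each). Without KRT19 replicate 3 the KRT19 mean was 186 CPM for LOXL2 and 42.9 CPM for P4HA2, closer to EV. PLOD2, with a KRT19 mean of 70.1 CPM without KRT19 replicate 3, was lower at an unadjusted p under 0.05 in the same alternatives as BNIP3L. LOXL2 was so without KRT19 replicate 1, with the looser filter, and with GC content and length corrected with or without the block, and P4HA2 without KRT19 replicate 1 and with the looser filter.

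The regulators of chromatin and transcription all had a log2 fold change below 0, and KDM4B and BHLHE40 were lower at an unadjusted p under 0.05. KDM4B (chromosome 19, 4969113 to 5153595), a histone H3 lysine demethylase that needs oxygen, was at 76.1, 72.8, 74.2 and 75.3 CPM in EV, and in the KRT19 group at 65.9, 67.4, 68.5 and 68.2 CPM. It had the tightest groups of the lower members, with coefficients of variation of 1.95% and 1.74%, and no overlap. The fitted difference (log2 fold change) was -0.14 ± 0.051 (SE, unadjusted p = 0.0109, adjusted p = 0.906), and -0.11 (unadjusted p = 0.0685) with GC content and length corrected and the replicate number as a block. BHLHE40 (chromosome 3, 4979116 to 4985323), a repressor of the circadian and hypoxia response, was at 125, 125, 133 and 129 CPM in EV, and in the KRT19 group at 122, 118, 101 and 113 CPM, without overlap. Its log2 fold change was -0.17 ± 0.060 (SE, unadjusted p = 0.0109, adjusted p = 0.906), and -0.12 without KRT19 replicate 3. KDM3A (111 ± 5.81 and 108 ± 4.30 CPM) and KDM4C (25.2 ± 1.28 and 24.4 ± 0.828 CPM), further histone demethylases, overlapped between EV and KRT19 libraries (SD, n = 4 each). So did the repressor BHLHE41 (35.1 ± 2.39 and 33.6 ± 2.20 CPM) and ZNF395 (24.2 ± 1.69 and 23.4 ± 0.125 CPM; SD, n = 4 each). The nuclear receptor RORA was scarce, with 3.17 ± 0.741 and 2.81 ± 0.304 CPM (SD, n = 4 each). Of the exon bases of ZNF395, 34.9% also lie in FBXO16.

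Both tested members of growth and stress signalling were lower at an unadjusted p under 0.05. CCNG2 (ENSG00000138764, plus strand of chromosome 4, 77157151 to 77433388), an unconventional cyclin that restrains the cell cycle, was at 51.6, 50.1, 47.1 and 49.4 CPM in EV, and in the KRT19 group at 40.9, 42.3, 44.0 and 36.7 CPM. The groups were separate and KRT19 replicate 4 was lowest. This gave the most negative log2 fold change of the members in this fit, -0.27 ± 0.064 (SE, 95% interval -0.41 to -0.14), a change of -17.2%, with an unadjusted p of 0.000535 (position 16 of all genes tested) and an adjusted p of 0.489 in edgeR. Without KRT19 replicate 1, KRT19 replicate 4 or EV replicate 2, ANGPTL4 (-0.31, -0.23 and -0.28) was below CCNG2 (-0.27, -0.22 and -0.27). PLOD1 (-0.29) was below CCNG2 as well without KRT19 replicate 1. DDIT4 (chromosome 10, 72273920 to 72276036), which restrains mTORC1 signalling under stress, was at 76.6, 85.0, 90.5 and 77.8 CPM in EV, and in the KRT19 group at 81.7, 73.7, 67.9 and 63.7 CPM. KRT19 replicate 1 lay within the EV range, so the groups overlapped. The log2 fold change of DDIT4 was -0.20 ± 0.075 (SE, unadjusted p = 0.0162, adjusted p = 0.906), and it was no longer under the unadjusted level without KRT19 replicate 4 (-0.15, unadjusted p = 0.0734) or without EV replicate 3 (-0.15, unadjusted p = 0.0652). Of its exon bases 41.2% lie opposite DDIT4-AS1, which had 0 counts, and the handling of strand was not stated.

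The 5 remaining targets all had a log2 fold change below 0, and ERO1A and VLDLR were lower at an unadjusted p under 0.05. ERO1A (ENSG00000197930, minus strand of chromosome 14, 52639916 to 52695900), the oxidase that forms disulphide bonds in the endoplasmic reticulum, was at 126, 125, 116 and 116 CPM in EV, and in the KRT19 group at 96.3, 112, 109.8 and 103 CPM. There was no overlap, and KRT19 replicate 1 was lowest here. The log2 fold change was -0.20 ± 0.058 (SE, unadjusted p = 0.00318, adjusted p = 0.868). VLDLR, a lipoprotein receptor, was at 38.3, 38.7, 36.9 and 37.2 CPM in EV, and in the KRT19 group at 33.1, 37.8, 31.2 and 33.9 CPM. KRT19 replicate 2 lay among the EV libraries, and the other 3 were below them. Its log2 fold change was -0.15 ± 0.066 (SE, unadjusted p = 0.0325, adjusted p = 0.906), and the unadjusted p was 0.05 or more on leaving out EV replicate 1 (-0.15), EV replicate 2 (-0.14), EV replicate 4 (-0.16), KRT19 replicate 1 (-0.14), KRT19 replicate 3 (-0.11) or KRT19 replicate 4 (-0.15), and with the replicate number as a block (-0.15, unadjusted p = 0.0601). ANKZF1 (36.3 ± 1.99 and 33.2 ± 2.70 CPM), ANKRD37 (4.69 ± 0.588 and 3.95 ± 0.768 CPM) and PPFIA4 (7.93 ± 0.344 and 7.79 ± 1.08 CPM) overlapped between EV and KRT19 libraries (SD, n = 4 each). ANKZF1 was lower at an unadjusted p under 0.05 without KRT19 replicate 1, and ANKRD37 without KRT19 replicate 2 and under limma-voom. ANKRD37 shares 35.2% of its exon bases with UFSP2 on the opposite strand.

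**Figure D3:**
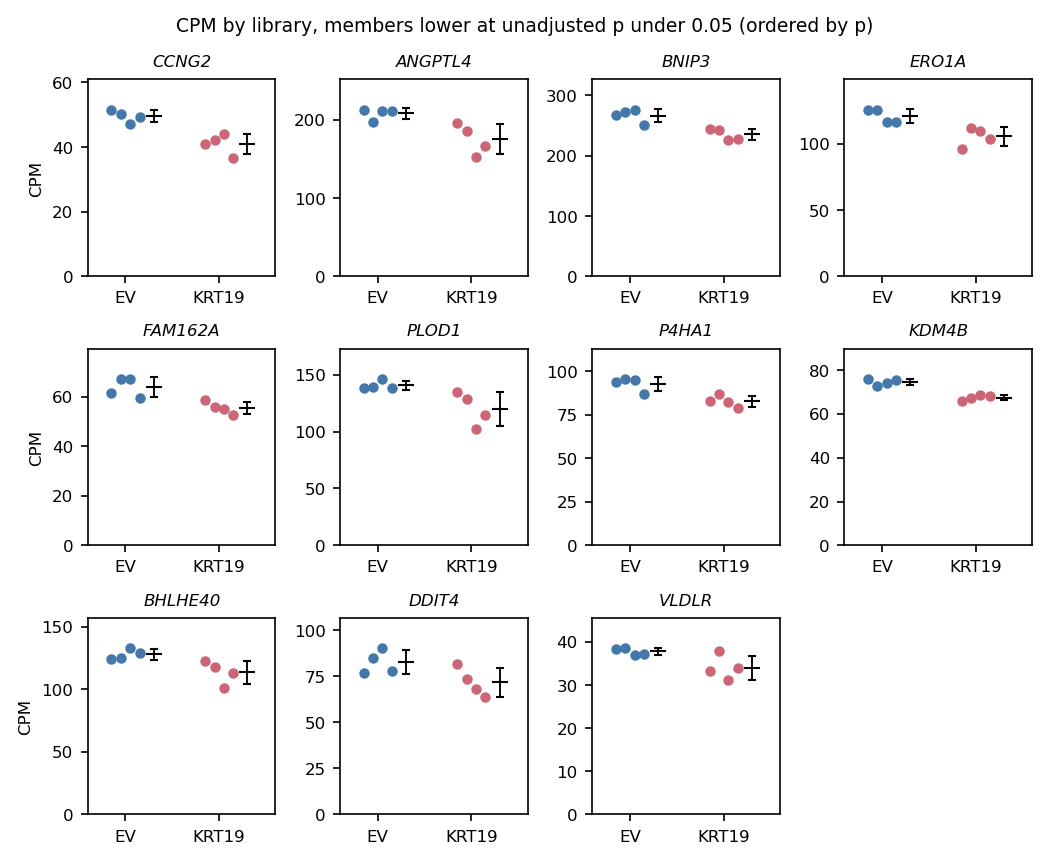
CPM in each library of the 11 members lower at an unadjusted p under 0.05, ordered by p, with 1 point per library, the mean and SD (n = 4) beside each group and axes from 0. In 9 panels all KRT19 points lie below all EV points, while in the DDIT4 and VLDLR panels 1 or more KRT19 points reach the EV range.

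The 3 members that did not pass the filter besides EGLN3 were nearly silent. CA9, the membrane carbonic anhydrase often used as a marker of hypoxia, had 3, 2, 4 and 1 counts in EV and 0, 1, 1 and 2 counts in KRT19 libraries. CA12, a related carbonic anhydrase, had 0 to 2 counts in EV and 0 in KRT19 libraries. NDRG1, a strong hypoxia target in many epithelial cells, had 1 count in EV replicate 2 and 0 counts in the other 7 libraries. At these depths 3 counts correspond to 0.176 to 0.213 CPM, the limit that a count of 0 allows. CA12 was counted among the lower members only with the looser filter of at least 1 count. Counting error alone enters these limits, since copies of 1 molecule made by PCR cannot be recognised in such reads. CA9 also shares 38.5% of its exon bases with ARHGEF39 on the opposite strand.

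The levels of the members covered a wide range. Per kilobase of gene length (CPM per kb, mean of the 8 libraries), ANGPTL4 stood highest at 77.3, followed by BNIP3 at 47.1 and DDIT4 at 37.5, and LOXL2 (32.1), BHLHE40 (31.5) and P4HA1 (28.4) came next. HIF1A (26.6) and BNIP3L (26.6) were level with each other. VHL was at 13.0, EGLN1 at 8.89, HIF1AN at 8.39 and ARNT at 7.60. VEGFA was at 3.78 and EGLN2 at 1.72, and the lowest tested members were PPFIA4 (0.810), EPAS1 (0.416) and RORA (0.175). On this scale HIF1A was far above EPAS1, and EGLN1 was above EGLN2 and EGLN3 (0.0619). The 11 lower members were spread from 3.84 CPM per kb for VLDLR to 77.3 for ANGPTL4.

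**Figure D4:**
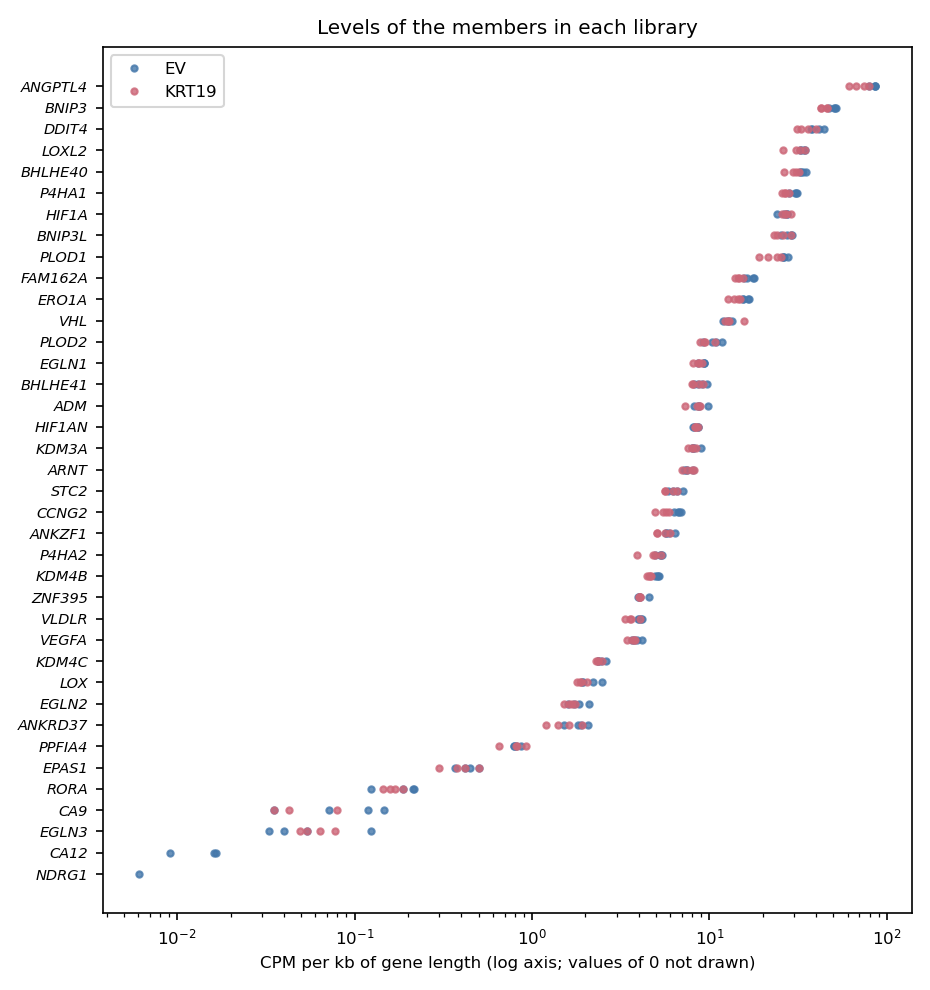
Level of each member in each library as CPM per kb of gene length on a log axis, ordered by the mean over the 8 libraries, with values of 0 left out. Levels run from 77.3 for ANGPTL4 to RORA at 0.175 among tested members, and CA9, EGLN3, CA12 and NDRG1 average at most 0.0662.

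The members did not all follow the same library. The median difference of the 34 tested members from their EV mean, in log2 CPM, was 0.015, 0.024, -0.012 and -0.016 in EV replicates 1 to 4. It was -0.055, -0.080, -0.15 and -0.18 in KRT19 replicates 1 to 4, so every KRT19 library was below every EV library and the distance from EV was larger in replicates 3 and 4 than in replicates 1 and 2. KRT19 replicates 3 and 4 were each the lowest of all 8 libraries for 12 of the 34 members (35.3%), against 21.6% and 9.68% of all genes tested. KRT19 replicate 3 was lowest for ANGPTL4, PLOD1, BHLHE40, LOXL2 and P4HA2, and KRT19 replicate 4 for CCNG2, DDIT4, FAM162A, P4HA1 and BNIP3L. Without KRT19 replicate 3 the members had a median log2 fold change of -0.11 with 12 lower at an unadjusted p under 0.05 (2.86% of all genes), and without KRT19 replicate 4 the median was -0.11 with 9 lower (2.11% of all genes).

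GC content moved with some of this spread. Across the 34 members, the deviation of KRT19 replicate 3 from its group mean had a Pearson r of -0.46 with GC content and that of KRT19 replicate 1 had 0.59, as a description across genes that share libraries. The GC content of the members' transcripts ran from 36.1% for PLOD2 to 63.5% for ANGPTL4. The log2 fold change of the members had an r of -0.11 with GC content. With GC content and gene length trends removed from each library, the median was -0.12, 15 members were lower at an unadjusted p under 0.05, as were 3.67% of all genes, and ERO1A and CCNG2 were among the 6 genes that passed the adjusted threshold (edgeR, adjusted p = 0.0442 and 0.0403).

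**Figure D5:**
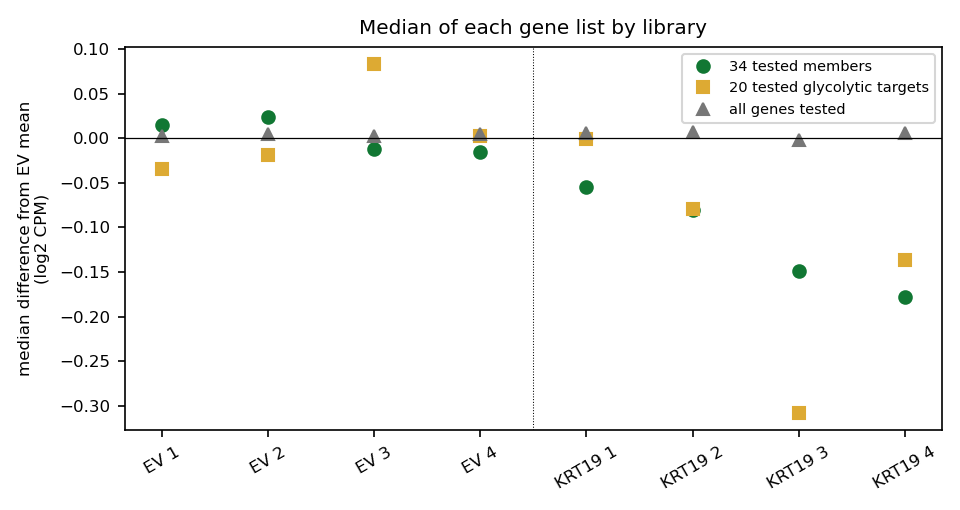
Median difference from the EV mean in log2 CPM for the 34 tested members (circles), 20 tested glycolytic hypoxia targets (squares) and all genes tested (triangles), by library. The members lie between -0.016 and 0.024 in EV and between -0.18 and -0.055 in KRT19 libraries, and all genes stay between -0.0022 and 0.0066. The glycolytic targets overlap, between -0.035 and 0.083 in EV and between -0.31 and -0.00050 in KRT19 libraries.

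Other genes of the pathway were set beside the members. The shares of all genes to read these counts against are again 2.56% lower, 2.85% higher and 47.8% below 0. Of 20 further regulators of HIF, covering its coactivators, the VHL ligase partners, chaperones and others, 18 were tested, 10 were below 0, and the median log2 fold change was -0.0062. At an unadjusted p under 0.05, 1 was lower, CITED2 (a HIF target that competes for the coactivator CREBBP, -0.18 ± 0.082), and 1 higher, HSP90AA1 (the chaperone that stabilises HIF-1 alpha, 0.24 ± 0.073; log2 fold change and SE). The mean of HSP90AA1 was 3192 CPM in EV and 3778 CPM in the KRT19 group, and 3529 CPM without KRT19 replicate 3, which alone stood at 4525 CPM. The ligase partners ELOB, ELOC, CUL2 and RBX1 did not reach that level. Of 21 glycolytic hypoxia targets, 20 were tested, 19 were below 0, 10 were lower at an unadjusted p under 0.05 and none was higher, with a median log2 fold change of -0.15. Those with the smallest p were the glucose transporter SLC2A3 (-0.34 ± 0.060) and the glycolytic enzyme PGK1 (-0.29 ± 0.063). Their median difference from the EV mean, in log2 CPM, was -0.035, -0.019, 0.083 and 0.0020 in EV replicates 1 to 4. It was -0.00050, -0.079, -0.31 and -0.14 in KRT19 replicates 1 to 4. KRT19 replicate 3 was the most distant library here, and KRT19 replicate 1 lay within the EV range. The KRT19 mean was 257 CPM for SLC2A3 and 2146 CPM for PGK1, against 326 and 2623 CPM in EV, and 266 and 2248 CPM without KRT19 replicate 3. None of the genes in either list passed the adjusted threshold in the main edgeR fit. Whether the glycolytic and the other targets differed from each other was not tested.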

How the data were processed

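RNA-seq counts of 8 libraries were analysed. The file the authors deposited holds unnormalised counts of reads for each gene. The submitters' processing notes name Bowtie 0.12.2, featureCounts 1.5.0-p3, DESeq2 and hg38 without roles, and the handling of strand and of multi-mapped reads is not given in the sources used here. All 58735 genes had the same coordinates in GENCODE 29 (GRCh38).

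Groups and replicate numbers came from the sample titles. With edgeR 4.0.16 (R 4.3.3), genes were kept by filterByExpr (14621 genes), scaled by TMM and compared between the groups by glmQLFit and glmQLFTest, two-sided, with Benjamini-Hochberg adjustment over all genes tested and a threshold of 0.05. SE was the size of the log2 fold change over the root of F. CPM used TMM-scaled library sizes, log2 CPM added a prior count of 2, and levels between genes were divided by the deposited gene length. Alternatives used DESeq2 1.42.0, limma 3.58.1 (voom with quality weights), other filters, splines with 5 degrees of freedom for GC content and length, a replicate block, and leaving out each library. The procedure was tested on simulated data.

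The members and lists were chosen with earlier results of these data known. Fold changes are printed for the 7 tested of the 8 regulators and for members with an unadjusted p under 0.05 or groups without overlap, and other members are given by level. Of the other pathway lists, at most 4 genes with the smallest p are given with values.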

Additional observations from a re-analysis of the deposited data

Results flagged for a closer look

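In 68 groups of 4 libraries (34 tested members, EV and KRT19), 4 single libraries lay apart from the rest by Dixon's test at the 95% level, where chance gives about 3.4. The gap to the nearest library is given as a fraction of the whole spread of the 4. All 4 were EV libraries. EGLN1 had 5.97 log2 CPM in EV replicate 3 and 6.08 to 6.09 in the others (gap 0.925). PLOD1 had 7.196 in EV replicate 3 and 7.11 to 7.12 in the others (0.853). ANGPTL4 had 7.63 in EV replicate 2 and 7.72 to 7.74 in the others (0.887). ZNF395 had 4.75 in EV replicate 1 and 4.54 to 4.57 in the others (0.842). Without EV replicate 3 the log2 fold change of EGLN1 was -0.11.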

How the results depend on the processing

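Over 17 alternatives, 9 to 16 members were lower at an unadjusted p under 0.05 and none was higher, while 1.53% (replicate block) to 4.66% (limma-voom) of all genes were lower, with a median log2 fold change between -0.15 and -0.11. The members past the adjusted threshold numbered 0, against 1 under limma-voom, 3 under the looser filter (at least 1 count) and 2 under the correction for GC content and length, and 0 under every other alternative, leaving out each library included. Over all genes, 1 passed, against 5 under the DESeq2 Wald test, 8 under limma-voom, 71 under the looser filter, 6 under the GC and length correction and 3 when that was combined with the replicate block, and 1 to 5 on leaving out 1 library (3 without EV replicate 1, 5 without KRT19 replicate 3). The cause was not tested. The looser filter tests all 38 members and its 16 lower members include CA12, which is near silent.

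Some regulators changed sign, as did the targets PPFIA4 (limma-voom, without EV replicate 2, without KRT19 replicate 3) and ZNF395 (without EV replicate 1), which left 26 of 27 targets below 0. VHL was at -0.0013 under limma-voom, and with GC content and length corrected HIF1A was at -0.0090 and HIF1AN at 0.013. On leaving out 1 library the log2 fold change ranged from -0.25 to 0.00076 for EPAS1, from -0.0072 to 0.067 for ARNT and from 0.0037 to 0.070 for HIF1A. For the sensors it ranged from -0.11 to -0.056 for EGLN1, from -0.20 to -0.068 for EGLN2, from -0.011 to 0.11 for VHL and from -0.022 to 0.010 for HIF1AN. Upper-quartile scaling moved the share of all genes below 0 from 47.8% to 52.8%.

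Libraries that share a replicate number were not paired, as the deviations from their group means correlated at r = -0.11, -0.024, -0.16 and 0.057. With the number as a replicate block, 10 members were lower at an unadjusted p under 0.05, without VLDLR, and 0 passed the adjusted threshold, and with the block and the GC and length correction together 13 were lower (3.004% of all genes), without KDM4B, HIF1A was at -0.0084 and HIF1AN at 0.013.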
